A study of Mus musculus with 4 samples.

Results

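The distal miRNA cluster of the imprinted Dlk1-Dio3 domain was examined in stroma of the mouse embryo. Its members are the miRNA genes that the annotation places on the plus strand of chromosome 12 (GRCm38) from Mir379, at 109709060, to Mir3072, which ends at 109747960, a span of 38.9 kb in and beside the noncoding gene Mirg. The position of the gene alone defines them, and no measured value enters that rule. Earlier results of these data were known when the members were chosen. There were 38 such genes among the 643 miRNA genes of the table, which held 2976 genes in all. Levels came from small RNA sequencing of 4 libraries in 1 group, prepared from CD1 embryos at stage E10.5 that carried Tbx18-Cre together with a CAG-tdTomato reporter. Cre under control of Tbx18 switches the red reporter on for good, so the sort also takes descendants of cells that no longer express Tbx18. The label names them as stroma beside the wolffian duct, an embryonic duct of the urogenital system. No other condition was sampled. Nothing in the labels ties the libraries to separate embryos or pools, so each SD and p-value measures only how these 4 libraries vary, and that variation may be technical.

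The Dlk1-Dio3 domain carries paternally expressed protein-coding genes and maternally expressed noncoding RNAs. Its miRNAs are cut by Drosha and Dicer from long transcripts of the maternal chromosome that pass through Meg3, Rian and Mirg. The distal group is one of the largest miRNA clusters in placental mammals, is thought to have grown by repeated duplication of a few hairpins, and is best known from brain, placenta and embryonic tissue. Each row of the table is a hairpin gene, so the arms cut from the 5′ side (5p) and the 3′ side (3p) of a hairpin were not measured apart.

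The mature sequences of the highest members are shown first because these genes made up most of the signal described below. They were taken from RefSeq (GRCm38.p6), in which all 38 members had at least 1 mature sequence and 36 had a hairpin. Each is written 5′ to 3′ with the seed, bases 2 to 8, in capitals. The seed is the part of a miRNA that pairs with target messenger RNAs.
miR-541-5p: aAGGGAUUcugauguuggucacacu
miR-541-3p: uGGCGAACacagaauccauacu
miR-409-5p: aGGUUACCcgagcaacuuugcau
miR-409-3p: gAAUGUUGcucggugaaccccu
miR-543-5p: aAGUUGCCcgcguguuuuucg
miR-543-3p: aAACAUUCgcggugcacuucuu
miR-379-5p: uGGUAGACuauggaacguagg
miR-379-3p: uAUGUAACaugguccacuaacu
miR-411-5p: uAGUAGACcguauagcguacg
miR-411-3p: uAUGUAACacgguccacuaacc
miR-381-5p: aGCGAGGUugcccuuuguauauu
miR-381-3p: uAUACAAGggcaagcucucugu
miR-382-5p: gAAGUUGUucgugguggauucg
miR-382-3p: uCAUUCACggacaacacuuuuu
miR-134-5p: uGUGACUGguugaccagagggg
miR-134-3p: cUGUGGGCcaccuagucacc
miR-495-5p: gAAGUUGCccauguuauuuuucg
miR-495-3p: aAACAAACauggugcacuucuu
miR-485-3p: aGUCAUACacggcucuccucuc

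The hairpin of the highest member, Mir541, lies at chr12:109742409-109742498 on the plus strand, in an intron of Mirg in GENCODE vM21. Both mature arms are in capitals, and the loop between them is in lower case.
Mir541: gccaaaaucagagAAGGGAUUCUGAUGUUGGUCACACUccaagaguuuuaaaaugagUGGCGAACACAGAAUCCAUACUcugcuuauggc

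The 71 mature sequences listed for the 38 members held 65 different seeds, so most members could not be grouped by a listed seed. For Mir376c, Mir485, Mir487b, Mir539 and Mir453 no sequence of the other arm was listed, so seeds of those arms are not counted. Among the listed sequences only 6 seeds were shared by members, each by 2 genes, which took in 11 members. These 6 pairs are printed together because the levels of their genes are compared below.
miR-379-3p: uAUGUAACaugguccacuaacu
miR-411-3p: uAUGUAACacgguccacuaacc
miR-379-5p: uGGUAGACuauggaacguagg
miR-1193-5p: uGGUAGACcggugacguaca
miR-758-5p: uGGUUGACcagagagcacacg
miR-1197-5p: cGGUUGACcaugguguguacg
miR-496a-5p: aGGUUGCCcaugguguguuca
miR-453: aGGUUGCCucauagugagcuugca
miR-494-5p: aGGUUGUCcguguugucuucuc
miR-410-5p: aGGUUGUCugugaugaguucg
miR-376b-5p: gUGGAUAUuccuucuaugguua
miR-376c-5p: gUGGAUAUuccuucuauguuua
The 3p arms of miR-379 and miR-411 were the same at 20 of 22 bases, and the 5p arms of miR-376b and miR-376c at 21 of 22. The 5p arms of miR-379 and miR-1193 matched at 10 of 20 bases, 7 of them the seed. Of the 65 seeds, 48 were found in no other gene of the RefSeq miRNA table and 11 also occurred in a miRNA gene outside the cluster, such as that of miR-329-3p in miR-362-3p.

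A pattern looser than a seed, with free bases and allowed at any place in the arm, occurred in more members than any seed. The 7-base motif GGUNNAC, where N is any base, was chosen after the sequences had been seen and was searched in the printed direction of each mature strand. It occurred in 20 of the 71 mature sequences (28.2%), in 14 of the 38 members. Among the other miRNA genes of the table with a mature sequence it occurred in 8 of 857 sequences (0.933%), and among the 35 of the proximal Dlk1-Dio3 group in 0. In 10 of the 12 3p arms that held it, the motif began at base 11, downstream of the seed, and in 6 of the 8 5p arms it began at base 2 and filled the seed. The motif is in capitals in these examples, which are set out to show its fixed place in the 3p arms.
miR-379-3p: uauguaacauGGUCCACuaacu
miR-411-3p: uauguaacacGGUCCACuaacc
miR-380-3p: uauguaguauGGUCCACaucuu
miR-323-3p: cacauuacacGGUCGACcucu
miR-758-3p: uuugugaccuGGUCCACua
miR-543-3p: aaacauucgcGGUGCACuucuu
miR-495-3p: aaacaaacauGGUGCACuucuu
miR-154-3p: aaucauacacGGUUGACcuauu
The arms miR-543-3p and miR-495-3p shared the motif letter for letter and matched at 18 of 22 bases. Their differences U6A and U7A, counted from the 5′ end of miR-543-3p, lie in the seed. A match of letters is a description and not a binding site. Members with the motif had a median level of 69.3 TPM against 9.87 TPM for the 24 without it, where TPM is reads per gene length scaled to a fixed total. They held 51.3%, 51.6%, 51.3% and 50.9% of the cluster's TPM in libraries 1 to 4. Neither comparison of levels was tested, and the motif had been chosen with these sequences in view.

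Hairpins of the cluster were less rich in G and C than those of other miRNA genes, with a median of 43.4% against 50% over 489 others. Within the cluster, Spearman's rho between G and C content and mean TPM was 0.0022 over 36 hairpins. It was -0.23 between hairpin length and mean TPM over the 38 members. These values are across genes that share the same 4 libraries, and they carry no test.

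Depth differed between libraries. Multiplying TPM by gene length gave steps of equal size in each library, and 100% of the nonzero miRNA values fell on a whole step within 0.01, taken here as whole reads. Reads on miRNA genes numbered from 146255 in library 4 to 1087240 in library 2, and those on the 38 members 129175, 126956, 69059 and 22583 in libraries 1 to 4. A count of 0 allowed up to 3 reads, which for a hairpin of 80 nt is 0.147, 0.182, 0.196 and 0.348 TPM. These limits cover counting error only.

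The cluster as a whole summed to 6373, 7770, 4551 and 2624 TPM in libraries 1 to 4, a mean of 5330 ± 2234 TPM (SD, n = 4). As a share of all miRNA TPM this was 14.998%, 11.9%, 7.38% and 16.0%, or 12.6% ± 3.88 (SD, n = 4). Library 4 thus had the lowest level and the highest share, and the table's total TPM was also lowest there, at 2.33% of the 1000000 that TPM is scaled to, against 4.94% to 7.22% in the others. Library 3 had the lowest share. The mean share was 14.3% without library 3 and 11.4% without library 4.

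Markers of the sorted population and of other cells that a sort could carry moved between the same libraries. The 6 genes listed for mesenchyme summed to 1894, 2373, 1444 and 331 TPM in libraries 1 to 4, with Mir199a-2 and Mir214 listed at 0. Those for neural cells summed to 351, 37.6, 3082 and 98.1 TPM over 10 rows, with 9 above 0, Mir9-3 the highest and Mir124a-1 at 0. Epithelial markers summed to 43.5 to 157 TPM over 6 of 6 rows, endothelial Mir126a reached 251 to 528 TPM, striated muscle markers 122 to 342 TPM over 6 rows with Mir1a-2 at 0, and Mir122 of liver 23.5 to 144 TPM. Erythroid markers were at 0.878 to 11.9 TPM over 3 rows with Mir486 at 0, and white blood cell markers at 3.61 to 9.19 TPM over 4 rows with Mir223 at 0. The part of these cells in the cluster's level was not tested. In a bulk library, fewer cells of a type and less RNA per cell cannot be told apart.

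Most of the cluster was detected. Of the 38 members, 30 (78.9%) reached 1 TPM or more in every library, against 33.1% of all 643 miRNA genes. Without library 4 these were 33 members and 37.0% of miRNA genes. By mean level, 10 members lay at 100 TPM or more, 11 between 10 and 100, 12 between 1 and 10, and 5 below 1 TPM. The last were Mir1197, at 0.456 to 1.18 TPM, Mir544, with 0 to 2 reads a library, Mir654, with 1 read in library 1 and 0 elsewhere, and Mir453 and Mir410, listed at 0 in all 4. Mir410, which by name closes the cluster, overlaps an exon of Mirg, a gene with a row of its own, and the sources used here do not say how reads on both were counted. Overlap with an annotated Mirg exon, by at least 1 base, was found for 9 members in all. The other 8, Mir382, Mir134, Mir668, Mir485, Mir377, Mir412, Mir369 and Mir3072, had reads in every library. Mir410, Mir134, Mir485 and Mir377 lay wholly within an exon, while Mir382, Mir668, Mir412, Mir369 and Mir3072 overlapped an exon only in part. A further 5 members lay in introns of Mirg and 24 upstream of it. Mir453 lay in an intron.

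**Figure D1:**
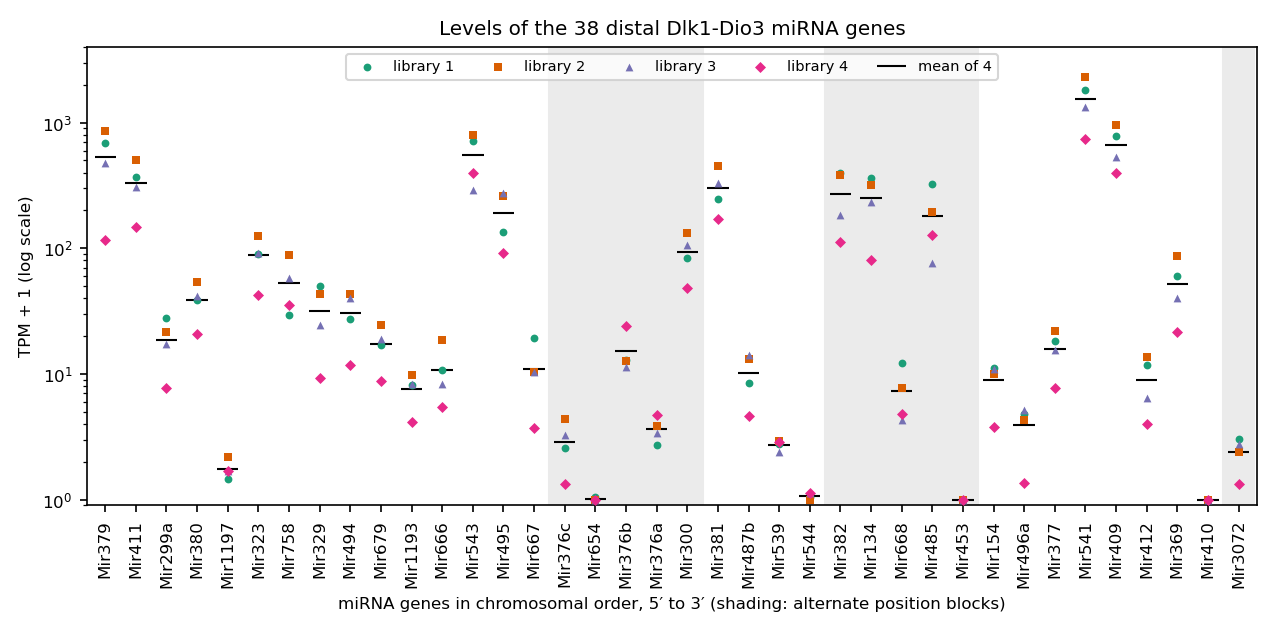
Levels of the 38 members as TPM + 1 on a log scale, in chromosomal order, with 1 symbol per library, a bar at the mean of the 4, and shading on alternate position blocks (a block ends where the next start is over 2 kb away). Mir541 is highest in each library, and members of 100 TPM or more stand beside members under 10 TPM. Library 4 is the lowest for 26 of the 33 members averaging 1 TPM or more, and for 211 of the 273 such miRNA genes.

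The highest member was Mir541, at 1815, 2312, 1334 and 735 TPM in libraries 1 to 4 (1549 ± 674 TPM; SD, n = 4). It was first in all 4 libraries and sixth among all miRNA genes by mean. Its share of the cluster hardly moved, at 28.5%, 29.8%, 29.3% and 28.01%. The coefficient of variation (SD over mean) of that share was 2.73%, the smallest among the 21 members at 10 TPM or more on average. Mir541 is itself a large part of the sum that forms this share, and as TPM its coefficient of variation was 43.5%. Mir409 (chr12:109743158-109743236, intron of Mirg), whose hairpin is overlapped on the other strand by the annotated Gm24321, followed at 785, 959, 534 and 394 TPM. No source used here says whether strand was used in counting. The log2 ratio of Mir541 to Mir409, with 1 TPM added to both, was 1.21, 1.27, 1.32 and 0.90 (mean 1.17 ± 0.19; SD, n = 4), so the gap between them was larger than its spread.

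Mir543 and Mir379 came next and changed places between libraries. Mir543 (chr12:109717258-109717333, upstream of Mirg) stood at 719, 791, 289 and 397 TPM. Mir379 (chr12:109709060-109709125), the first hairpin of the cluster and the one that gives it its name, stood at 688, 861, 474 and 116 TPM. Mir379 therefore took 10.8%, 11.1% and 10.4% of the cluster in libraries 1 to 3 and 4.41% in library 4. Mir543 went the other way there, with 11.3%, 10.2% and 6.35% in libraries 1 to 3 and 15.1% in library 4. The mean log2 ratio between them, 0.25 ± 1.07 (SD, n = 4), was smaller than its spread.

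The 6 other members at 100 TPM or more lay close together. Mir411 (chr12:109710175-109710256), which lies next to Mir379, had 368, 506, 305 and 146 TPM and the second steadiest share, with a coefficient of variation of 9.002%. Mir381 (chr12:109726822-109726896) had 248, 451, 328 and 171 TPM, so it was lower in library 1 than in libraries 2 and 3. Mir382 (chr12:109733771-109733846), at the start of the group that overlaps Mirg, had 394, 384, 185 and 111 TPM. Mir134 (chr12:109734139-109734209), known in neurons for control of dendritic spine size through Limk1, had 364, 317, 231 and 80.2 TPM. Both of these were highest in library 1 and lowest in library 4.

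Mir495 and Mir485 were the least steady of the 10. Mir495 (chr12:109718754-109718816) had 134, 260, 272 and 90.7 TPM, and Mir485 (chr12:109734902-109734974) had 326, 195, 75.8 and 127 TPM. Mir495 took 2.11%, 3.35%, 5.97% and 3.46% of the cluster and Mir485 5.11%, 2.51%, 1.67% and 4.83%, so the library highest for one was the lowest for the other in both directions. The coefficients of variation of these shares were 43.6% and 48.3%. In library 3, where Mir485 was lowest, it was no longer among the 10 highest members, and the other 9 were among the 10 highest in each library.

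The first place was therefore firm, held by Mir541, and the order of neighbours below it was loose. Neighbours were defined by the means of these same 4 libraries, so small differences between them are built into the choice. Of the 9 pairs of neighbours among the 10 highest members, only Mir541 over Mir409 had the same direction in all 4 libraries. Over all 35 pairs of neighbours, from Mir541 down to Mir654, 3 did so, and in 5 the mean log2 ratio exceeded its SD. Neighbours in the order mostly did not differ beyond their spread, while the wide ranking held: Spearman's rho between libraries over the 33 members at 1 TPM or more on average was 0.935 to 0.984, against 0.866 to 0.940 over 273 miRNA genes with such a mean. Both are across genes that share a library, and carry no test.

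**Figure D2:**
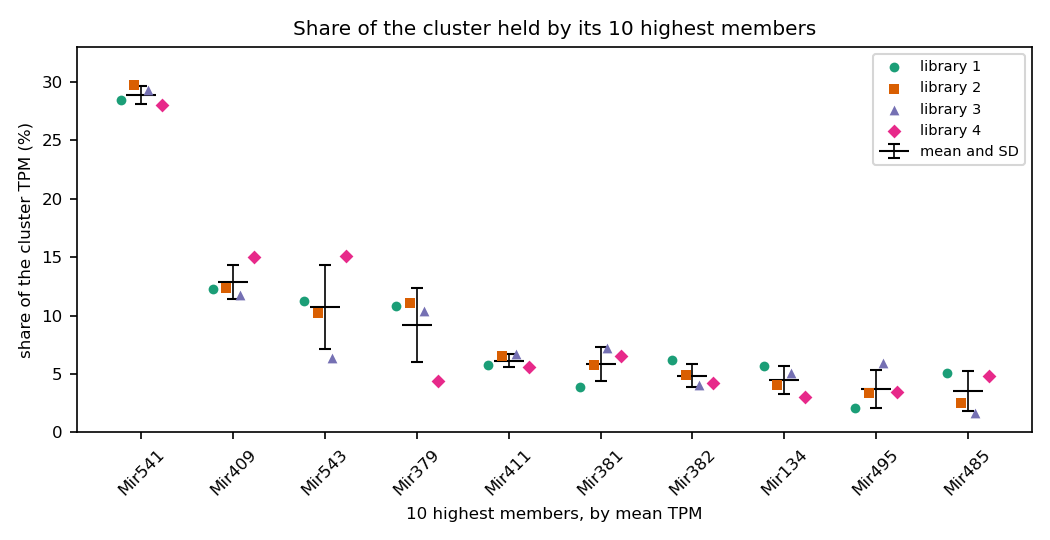
Share of the cluster's summed TPM (percent) for the 10 highest members, with 1 symbol per library and the mean with its SD. Mir541 stays between 28.01% and 29.8%, while Mir379 falls to 4.41% and Mir543 reaches 15.1% in library 4.

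Few genes carried the signal. The 3 highest members took 52.1%, 52.3%, 47.4% and 58.1% of the cluster in libraries 1 to 4, and the 10 highest took 90.2% ± 1.32 (SD, n = 4). Among all miRNA genes, 9 of the 50 highest by mean TPM were members. The 10 highest held least in library 3, at 88.5%, and most in library 1, at 91.7%.

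Position along the cluster did not order the levels. Divided where neighbouring starts lay over 2 kb apart, the cluster fell into 6 blocks. The first, 15 genes from Mir379 to Mir667, held 34.8%, 36.7%, 36.3% and 33.9% of the cluster, and the fifth, 8 genes from Mir154 to Mir410, held 42.4%, 43.8%, 42.6% and 44.3%. The second, the miR-376 genes with Mir654 and Mir300, held 1.55% to 2.82%, and the third, from Mir381 to Mir544, 4.03% to 7.53%. The fourth, from Mir382 to Mir453, held 17.2% in library 1 and 10.9% to 12.2% in the others. Mir3072 stood alone at the end, at 2.03, 1.41, 1.76 and 0.335 TPM, the last value resting on 3 reads. Spearman's rho between position and mean level was -0.22 over the 38 members, a description with no test. High and low members stood side by side in the same block: Mir541 and Mir409 shared the fifth with Mir154, at 7.93 ± 3.46 TPM, and Mir496a, at 2.90 ± 1.73 TPM (SD, n = 4).

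Of the pairs that shared a seed, Mir379 and Mir411 did not differ beyond their spread, and in the others the same gene was listed higher in 4 of 4 libraries. Mir379 was above Mir411 by 1.87, 1.70 and 1.55 times in libraries 1 to 3 and below it, at 0.793 times, in library 4. Mir1193, which shares the other seed of Mir379, stood at 7.17, 8.80, 7.33 and 3.14 TPM, and Mir379 was 36.8 to 97.8 times as high. Mir758 stood at 28.4, 87.4, 57.5 and 34.1 TPM, so it was lowest in library 1 and highest in library 2. Its seed partner Mir1197 was at 0.0121 to 0.0204 times the level of Mir758. Mir494, at 26.4, 42.4, 39.0 and 10.7 TPM, was detected in each library while its partner Mir410, which overlaps an exon of Mirg, was listed at 0. Mir496a, at 3.76, 3.33, 4.16 and 0.352 TPM, likewise had a partner at 0, Mir453. In library 4 the value of Mir496a rested on 3 reads, which a count of 0 also allowed, so the 2 were not told apart there. Since the arms were not measured apart, none of these comparisons says how much of each seed was present.

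The miR-376 genes, whose primary transcripts are known for adenosine-to-inosine editing in brain, were low. Mir376b stood at 11.97, 11.6, 10.4 and 23.1 TPM, so its level was highest in the library where the cluster's sum was lowest. Its share of the cluster was 0.188%, 0.149%, 0.228% and 0.879%, with a coefficient of variation of 96.2%, the largest among those 21 members. The value in library 4 rested on 204 reads, against 251, 195 and 163 in libraries 1 to 3. Mir376a was also highest in library 4, at 1.73, 2.86, 2.38 and 3.68 TPM, while Mir376c was lowest there, at 1.59, 3.34, 2.24 and 0.324 TPM, the last from 3 reads. No other member was highest in library 4. Mir376b was above Mir376c in 4 of 4 libraries and above Mir376a, a pair chosen after the values had been seen, by 4.04 to 6.94 times.

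Mir381 and Mir300, 2 hairpins whose 3p arms matched at 19 of 22 bases but differ in the seed by A4G (counted from the 5′ end of miR-381-3p), kept a close ratio. Mir300 stood at 83.2, 131, 105 and 46.9 TPM, and Mir381 was 2.98, 3.43, 3.12 and 3.65 times as high, a mean log2 ratio of 1.70 ± 0.13 (SD, n = 4). Mir543 and Mir495, the pair with the matching motif, did not: Mir543 was 5.35, 3.04, 1.06 and 4.38 times as high. Both of these pairs were also chosen after the values had been seen.

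The remaining members lay between these extremes. Mir323 stood at 86.6 ± 34.1 TPM, Mir369, whose 3p product is known for a role in translation through AU-rich elements, at 51.2 ± 27.8 TPM, and Mir380 at 37.7 ± 13.5 TPM (SD, n = 4). Mir329 stood at 30.8 ± 18.5 TPM, Mir299a at 17.5 ± 8.35 and Mir679 at 16.3 ± 6.54 TPM (SD, n = 4). Mir377 stood at 17.4, 20.96, 14.5 and 6.68 TPM, and its share of the cluster had the third smallest coefficient of variation, 9.86%. The rest, Mir666, Mir667, Mir487b, Mir412, Mir668 and Mir539, had means from 1.74 to 9.93 TPM. Mir299a, Mir380, Mir376a and Mir539 are overlapped on the other strand by an annotated gene, as is Mir409, so their reads may include reads of that strand.

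Members were next set against the average miRNA gene. For each gene with a mean of at least 1 TPM, log2(TPM + 1) was taken relative to the mean of all such miRNA genes in the same library, and limma asked whether the difference exceeded the spread between libraries. A difference on this scale understates that of low genes. Of the 38 members 33 passed the filter, and 15 of them (45.5%) were called above the average at an adjusted p under 0.05, against 36.6% of the 273 miRNA genes tested. Another 12 (36.4%) were called below it, against 45.1% of all tested, and 6 were not called. The median difference was 0.26 log2 units over the members and -0.57 over all genes tested. These calls depend on which genes form the average. With no filter, 28 of 38 members (73.7%) were called above it, against 28.6% of all 643 miRNA genes, and 7 of the 12 called below turned to above. With a filter of 10 TPM none of the 12 was tested. Differences ran from -3.28 to 6.01 over the members and from -3.63 to 7.91 over all genes tested.

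The highest difference among members was that of Mir541, 6.01 ± 0.29 log2 units above the average (SE, n = 4; limma adjusted p = 2.65e-06), and the lowest that of Mir3072, at -3.28 ± 0.27 (SE; limma adjusted p = 1.95e-05). The called members above the average were the 10 highest together with Mir300, Mir323, Mir758, Mir369 and Mir380, the last at 0.73 ± 0.26 (SE; limma adjusted p = 0.031). The call of Mir380 was lost whichever library was left out, and with a filter of 10 TPM it was called below the average. Those not called were Mir376b, Mir377, Mir679, Mir299a, Mir329 and Mir494. These p-values borrow an estimate of spread from all 273 genes. The SD between libraries on this scale had a median of 0.46 over the members and 0.58 over all genes tested.

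**Figure D3:**
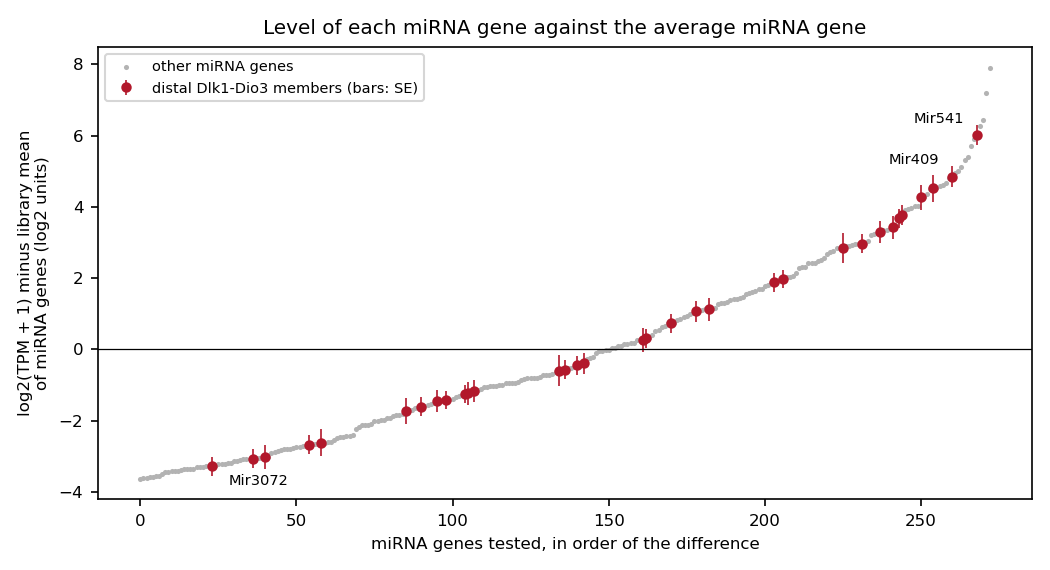
Difference of each of the 273 tested miRNA genes from the mean miRNA gene of its library, in log2 units of TPM + 1, in order of the difference, with members in red and their SE as bars. Members lie from -3.28 (Mir3072) to 6.01 (Mir541), with other miRNA genes between them.

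The nearest comparison within the domain is the proximal group, the 19 miRNA genes in the 200 kb before Mir379, around Meg3, Rtl1 and Rian. It summed to 706, 993, 753 and 385 TPM in libraries 1 to 4, and the distal cluster was 9.03, 7.82, 6.04 and 6.81 times as high. The log2 ratio with 1 TPM added to both sums was 2.87 ± 0.25 (SD, n = 4), positive in 4 of 4 libraries (exact permutation of signs, two-sided p = 0.125, and 0.125 after Benjamini-Hochberg adjustment over 2 ratios). With 4 libraries no smaller p is possible, so a threshold of 0.05 could not be reached. Of the proximal genes, 10 were listed at 0 in all libraries, and 7 of these, Mir431, Mir433, Mir127, Mir434, Mir432, Mir3071 and Mir136, lie within the span of Rtl1, to which several of them are antisense. Within the same span, Mir673, Mir493, Mir337, Mir540, Mir665, Mir3070a and Mir3070b had reads, up to a mean of 76.6 TPM for Mir337. Outside it, Mir1906-1, Mir770 and Mir882 were also listed at 0 in all libraries. The part that counting over overlapping genes had in these zeros was not tested. Mir370 supplied 67.0% to 85.0% of that sum, at 473, 749, 590 and 327 TPM, and the lowest proximal gene with any read was Mir3070b, at 0.109 TPM in library 2 and 0 elsewhere.

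The noncoding host genes themselves were listed far below the sum of the cluster in these small RNA libraries. Such libraries are made from short RNAs, so values of long genes in them do not measure the full transcripts. Mirg was listed at 0.0932, 0.0112, 0.0201 and 0.0999 TPM, Meg3 at 0.0361, 0.00490, 0.00930 and 0.0280 TPM, and Rian at 1.73, 1.13, 0.642 and 1.40 TPM. Of 8 long genes listed for the domain, these 3 and Dio3os had a row, and Dio3os was at 0 in 3 libraries.

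A second imprinted miRNA cluster lies within Sfmbt2, a gene expressed from the paternal allele in extraembryonic tissue. Its 40 miRNA genes summed to 9.85, 28.5, 24.7 and 8.62 TPM, and 24 of them were listed at 0. The distal Dlk1-Dio3 cluster exceeded it by 8.20 ± 0.72 log2 units (SD, n = 4), in 4 of 4 libraries (exact permutation of signs, two-sided p = 0.125, and 0.125 after the same adjustment). Many of these copies are nearly identical, and no source used here says how a read that matched more than 1 copy was counted.

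**Figure D4:**
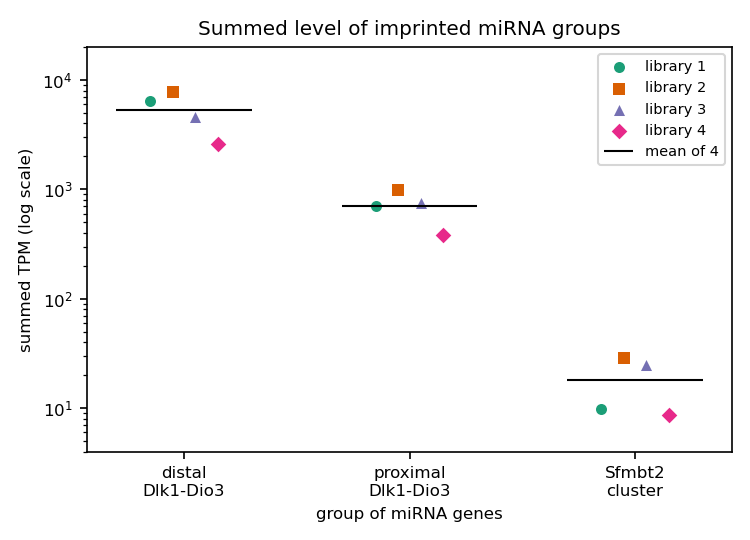
Summed TPM on a log scale of the distal cluster, the proximal Dlk1-Dio3 miRNA genes and the Sfmbt2 miRNA genes, with 1 symbol per library and a bar at the mean. The distal sums, from 2624 to 7770 TPM, lie above the proximal sums of 385 to 993 TPM in each library.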

How the data were processed

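Small RNA of sorted Tbx18-lineage cells gave 4 libraries, read from 1 end for 75 bp. The authors deposited 1 table of TPM values by gene ID, with each library in its own column. The submitters' processing notes name limma and the builds mm10 and GRCm38. Aligner, counter and treatment of multiply matching reads: not given in the sources used here. Columns were matched to libraries by title. Rows were joined to RefSeq genes of GRCm38.p6 (2541 of 2976 matched), and Mirg exons came from GENCODE vM21.

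Each log2 value is log2(TPM + 1). Levels were compared with limma 3.58.1 (R 4.3.3; intercept only, Benjamini-Hochberg over 273 miRNA genes averaging 1 TPM or more, threshold 0.05; the procedure was tested on simulated data), and sums by an exact sign-flip permutation test. Reads per hairpin were recovered from TPM times length and used for depth and 1 alternative, with no count model. Reads numbered 146255 to 1087240 per library on miRNA genes.

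Every member is accounted for. Values in each library are given for the 10 highest, the first and last by position, those that share a seed, and the 3 steadiest and 3 least steady shares of the cluster among members averaging 10 TPM or more. A few others are named where a count, a value of 0 or a ratio refers to them. The members and lists were chosen with earlier results of these data known. Alternatives covered pseudocount, filter, reference level, unit, variance model and each library left out. Tables were handled in Python 3.11.15 with pandas 2.3.3 and scipy 1.17.1, and plots drawn with matplotlib 3.10.9.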

Additional observations from a re-analysis of the deposited data

Results flagged for a closer look

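In 70 sets of 4 values (each of 33 members as TPM and as share of the cluster, the cluster's sum and share, and the 2 ratios), 6 had a library whose gap to the nearest other exceeded, as a ratio to the whole range, the critical value of Dixon's test for 4 values. Chance gives about 1 in 20 such sets, and sets of the same genes are not independent. In 4 of the 6 the library standing apart was above the others. Mir376b stood apart in library 4 as TPM (ratio 0.874; 23.1 TPM against 10.4 to 11.97) and as share of the cluster (ratio 0.892; 0.879% against 0.149% to 0.228%). The share of Mir539 was also high in library 4 (ratio 0.863; 0.0717% against 0.0245% to 0.0310%), on 15 reads. Low in library 4 were Mir154 as TPM (ratio 0.834; 2.81 TPM against 8.92 to 10.1) and the share of Mir379 (ratio 0.899; 4.41% against 10.4% to 11.1%). The share of Mir1193 was high in library 3 (ratio 0.851; 0.161% against 0.113% to 0.120%). Library 4 had the fewest reads, and the part of depth in these values was not tested; Mir379 rested on 823 reads there and Mir376b on 204.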

How the results depend on the processing

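With no filter on low values, 28 of 38 members (73.7%) were called above the average of all 643 miRNA genes, against 28.6% of those genes. The average then includes genes at 0, and of the 12 members otherwise called below it 7 turned to above and 3 were kept. With a filter of 10 TPM, which left 21 members, 10 were called above the average and 7 below; none of the 12 was tested, and the 7 comprised 6 members otherwise not called and Mir380, which turned from 0.73 to -0.85 log2 units. In the other alternatives that kept all libraries the counts were 12 to 16 above and 11 to 16 below. With each library left out, 12 to 14 were called above, all among the 15, and 12 to 13 below, with all 12 kept. The mean log2 ratio to the proximal sum stayed between 2.77 and 2.97, and that to the Sfmbt2 sum between 7.54 and 8.44. Medians over genes in place of sums gave 3.94 for both, which is no ratio between groups, since the median of both other groups was 0. The cluster's mean share of miRNA TPM ran from 10.7% to 14.3%, against 12.6% in the main setting, and its share of the whole table was 10.3%. Leaving out any library moved no mean of a member with at least 1 TPM by over 1.5 times. No paired analysis was possible because there was 1 group. Depth limits mainly library 4, where Mir376c, Mir496a and Mir3072 rested on 3 reads each.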
